A study of Arabidopsis thaliana with 4 samples.

Results

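The 10 ABA (abscisate) signalling and dehydration marker genes described here were taken by locus code from the 30361 loci measured, and each gave 1 row. They are the ABA synthesis gene NCED3 (AT3G14440), the phosphatase genes ABI1 (AT4G26080), ABI2 (AT5G57050) and HAB1 (AT1G72770), and the dehydration and cold markers RD29A (AT5G52310), RD29B (AT5G52300), RAB18 (AT5G66400), KIN1 (AT5G15960), COR15A (AT2G42540) and COR47 (AT1G20440). The samples were wild-type Arabidopsis thaliana Col-0 plants, the common laboratory accession, in 2 groups, and the labels name no organ. The hexenal group (3 arrays, labelled as biological replicates) was exposed for 30 min to 10 µM (E)-2-hexenal, a reactive aldehyde that wounded leaves give off, evaporated from acetonitrile. The control group (1 array) had the acetonitrile solvent for the same 30 min. Every RNA sample came from at least 6 plants, and plants were treated at 25 °C in the light in a closed box of 340 cm3. The series asked which abiotic stress genes reactive leaf volatiles induce.

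ABA, or abscisic acid, is the plant hormone of drought and cold. It binds PYR and PYL receptors, which then block the clade A protein phosphatases. The SnRK2 kinases that these phosphatases hold inactive are freed and switch on ABF transcription factors, and these in turn raise the genes of dehydration proteins. Transcripts of the phosphatases themselves are known to be raised by ABA, as a brake on the pathway, so they and the dehydration genes serve as markers of the hormone's action in leaves.

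Median deposited intensities were 982, 968 and 936 on hexenal arrays 1, 2 and 3 and 941 on the acetonitrile array. Hexenal array 3 lay closest to the control, with a median absolute log2 difference per locus of 0.198, against 0.355 for array 1 and 0.330 for array 2. All 4 leaf markers (RBCS1A, LHCB1.3, RCA and PSAN) were bright, with summed deposited intensities of 164697 to 177676 on the hexenal arrays and 178806 on the control. The 4 floral markers AP1, AP3, AG and SEP3 summed to 657, 260 and 268 on hexenal arrays 1, 2 and 3 and to 270 on the control, and only AP1 on hexenal array 1 lay outside the dimmest 25% of loci there. The 5 root markers summed to 13618, 32620.2 and 22316 on hexenal arrays 1, 2 and 3 and to 30041 on the control, nearly all of it BGLU23 (13138 on hexenal array 1 and 29359 on the control). TIP2;3, a dim root marker, lay above the control on all 3 hexenal arrays (0.92, 0.75 and 0.18 in log2). The root markers EXPA7 (-0.86, -0.83 and -0.30) and PRP3 (-0.28, -0.08 and -0.04) lay below it on all 3, while BGLU23 and COBL9 overlapped it. The 4 guard cell markers summed to 4734, 3706 and 3673 on hexenal arrays 1, 2 and 3 and to 6022 on the control. FAMA and OST1 made up most of that sum (2675 and 3067 on the control) and lay below the control on all 3 hexenal arrays. MYB60 (0.33, -0.24 and -0.26 in log2 against the control) and HT1 (0.53, 0.05 and -0.85) overlapped it. HT1 was among the dimmest 25% of loci on 4 arrays and MYB60 on 3. The 3 seed markers summed to 426, 496 and 440 on hexenal arrays 1, 2 and 3 and to 480 on the control. No marker was listed at 0. In such bulk samples, fewer cells of a type and less RNA per cell cannot be told apart.

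The phosphatase genes ABI2 and ABI1 had the largest differences of the 10 genes, 3.66-fold and 2.25-fold higher with hexenal, and stood above the control on 3 of 3 hexenal arrays, though neither was called. HAB1, a phosphatase of the same clade, lay below the control on all 3. The 6 dehydration and cold markers had log2 differences between -0.15 and 0.35, of which RD29B had a wide interval and KIN1 was too dim to be informative. A gene counted as called when limma's p, adjusted by Benjamini-Hochberg over all loci, was below 0.05 and the difference reached 2-fold, and 0 of the 10 genes did so, while 2 had an unadjusted p under 0.05. Among all 30361 loci 0.899% were called, 0.866% as higher and 0.0329% as lower with hexenal.

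**Figure D1:**
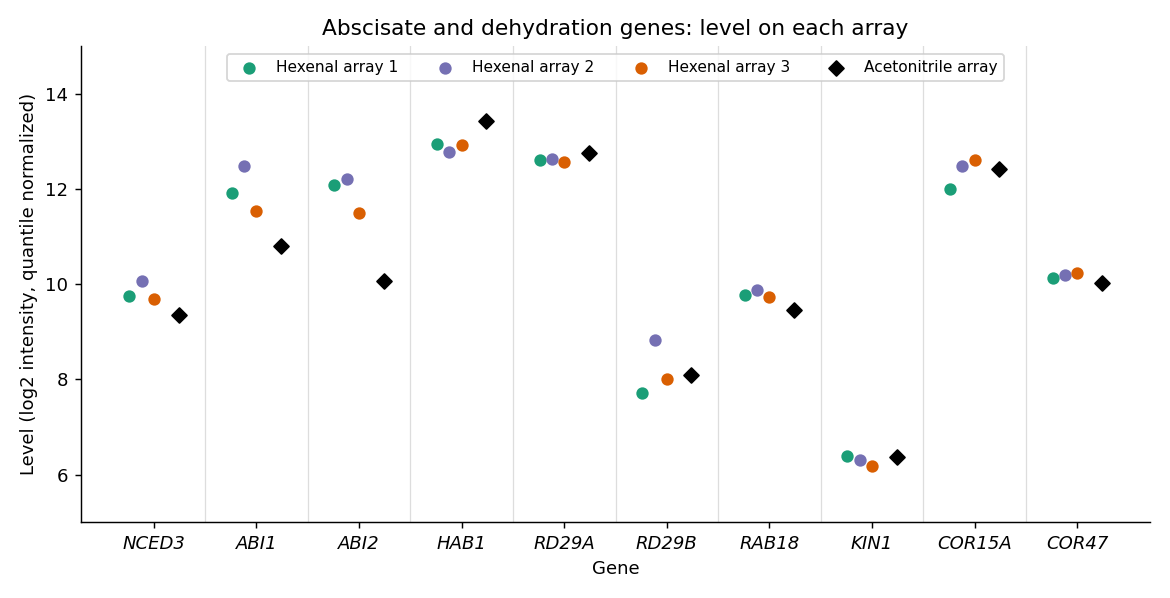
Level of each of the 10 genes on each array (vertical axis, quantile normalized log2 intensity). Circles are hexenal arrays 1 to 3, and the diamond to their right is the acetonitrile array. ABI1 and ABI2 are the genes whose 3 circles stand farthest above the diamond, while the 3 circles of RD29A span only 0.051.

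NCED3 encodes a 9-cis-epoxycarotenoid dioxygenase, the step that limits ABA synthesis under drought. Its log2 levels were 9.76, 10.07 and 9.69 on hexenal arrays 1, 2 and 3 and 9.35 on the acetonitrile array. All 3 hexenal arrays were higher than the control, array 2 most. The log2 difference was 0.49 ± 0.27 (SE, n = 3 against 1), with a 95% interval of -0.19 to 1.17 and an adjusted p of 0.672 by limma. Every SE in the text is limma's moderated SE, which borrows spread from all loci. Of all loci, 27.5% had a larger absolute difference.

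ABI1 and ABI2 encode 2 close relatives among the clade A phosphatases, first known from mutants that do not respond to ABA. ABI2 had log2 levels of 12.08, 12.21 and 11.50 on hexenal arrays 1, 2 and 3 and 10.06 on the acetonitrile array. ABI1 had log2 levels of 11.91, 12.47 and 11.54 on the same hexenal arrays and 10.81 on the acetonitrile array. For both genes hexenal array 2 was highest, array 3 was lowest of the hexenal arrays, and the groups did not overlap. The hexenal levels averaged 11.93 ± 0.38 for ABI2 and 11.98 ± 0.47 for ABI1 (SD, n = 3).

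The log2 difference of ABI2 was 1.87 ± 0.35 (SE), a fold of 3.66 with a 95% interval of 1.99 to 6.73, and its adjusted p was 0.132 by limma (unadjusted p = 0.00241). Only 1.52% of loci had a larger absolute difference. The smallest difference among the called loci was 1.80 on the log2 scale, so ABI2 lay at the lower edge of the sizes that were called. Of the 462 loci with an absolute difference at least that of ABI2, 266 were called. ABI2 passed the thresholds with eBayes with trend and robust moderation (adjusted p = 0.0110) and without hexenal replicate 3 (adjusted p = 0.0484, difference 2.08), and across the settings tried the adjusted p lay between 0.0110 and 0.490.

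The log2 difference of ABI1 was 1.17 ± 0.40 (SE), a fold of 2.25 with a 95% interval of 1.12 to 4.51. Its adjusted p was 0.480 by limma (unadjusted p = 0.0302), and 4.50% of loci differed more. ABI1 and ABI2 were the members with a 95% interval that left out 0, 2 of the 10. The same 2 had an unadjusted p under 0.05, which 8.75% of all loci had, and at least a 2-fold difference, which 7.22% of all loci had.

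HAB1 encodes another clade A phosphatase, related to ABI1. It had log2 levels of 12.95, 12.77 and 12.93 on hexenal arrays 1, 2 and 3 and 13.42 on the acetonitrile array. Here every hexenal array lay below the control and the hexenal arrays were close together (SD 0.0995). The log2 difference was -0.53 ± 0.24 (SE; 95% interval -1.14 to 0.07), with an adjusted p of 0.622 by limma.

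**Figure D2:**
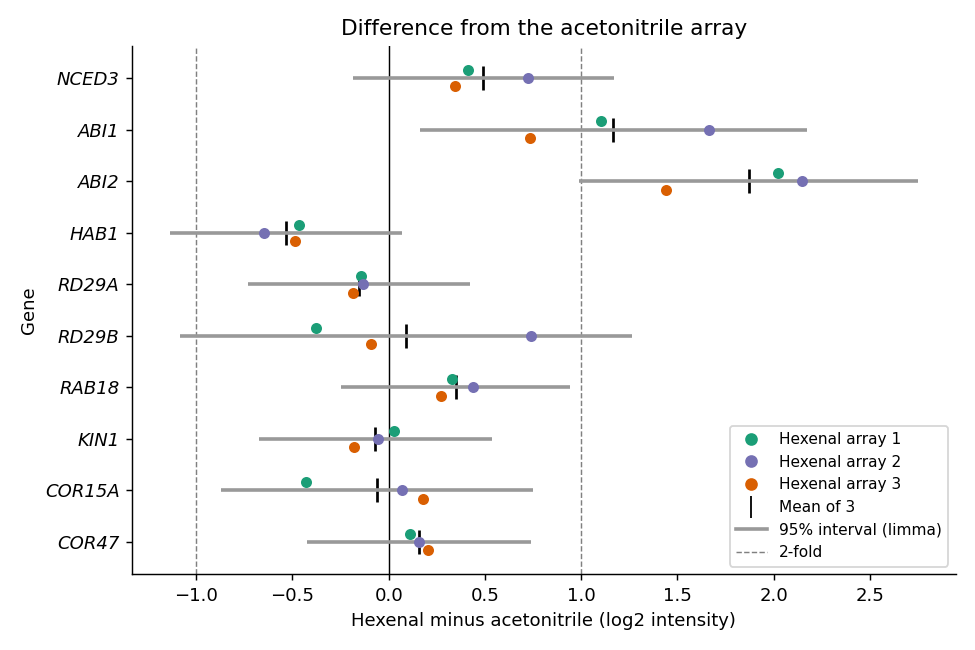
Difference of each hexenal array from the acetonitrile array (horizontal axis, log2 intensity; coloured points) for the 10 genes, with the mean of 3 (black tick) and the 95% interval from limma (grey line). Dashed lines mark a 2-fold difference. The intervals of ABI1 and ABI2 lie right of 0, and those of RD29A, RAB18, KIN1, COR15A and COR47 lie within the dashed lines.

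The dehydration and cold markers come next. RD29A and RD29B are neighbours on chromosome 5 with no protein-coding gene between them in the RefSeq order, and encode hydrophilic stress proteins. RD29A is known to answer to cold and drought through DREB and CBF factors as well as to ABA, RD29B mainly to ABA. RD29A had log2 levels of 12.61, 12.62 and 12.57 on hexenal arrays 1, 2 and 3 and 12.75 on the acetonitrile array. The 3 hexenal arrays lay together, slightly below the control, with a spread (SD 0.0266) well under the median of 0.236 over all loci. The difference was -0.15 ± 0.23 (SE), and its 95% interval of -0.73 to 0.42 held no 2-fold change in either direction.

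RD29B had log2 levels of 7.72, 8.83 and 8.001 on hexenal arrays 1, 2 and 3 and 8.09 on the acetonitrile array. The groups overlapped, since array 2 stood above the control and arrays 1 and 3 below it. Its hexenal arrays ranged over 1.12, the widest range of the 10 genes. The difference was 0.09 ± 0.47 (SE), with a 95% interval of -1.08 to 1.26 that leaves 2-fold changes both ways possible. Its sign turned with median centring (-0.03) and without hexenal replicate 2 (-0.24).

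RAB18 encodes a dehydrin, a hydrophilic protein that protects cells as they dry, and is known as a marker of ABA. It had log2 levels of 9.78, 9.88 and 9.72 on hexenal arrays 1, 2 and 3 and 9.45 on the acetonitrile array. COR47, a dehydrin gene named for cold, had log2 levels of 10.13, 10.18 and 10.23 on the same hexenal arrays and 10.02 on the acetonitrile array. In both genes all 3 hexenal arrays stood above the control and close to each other. The differences were 0.35 ± 0.24 (SE; 95% interval -0.25 to 0.94) for RAB18 and 0.16 ± 0.23 (SE; 95% interval -0.42 to 0.74) for COR47. Their adjusted p values by limma were 0.703 and 0.872.

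COR15A encodes a chloroplast protein of cold acclimation. Its log2 levels were 11.99, 12.49 and 12.60 on hexenal arrays 1, 2 and 3 and 12.42 on the acetonitrile array. Array 1, the array with the high floral markers, lay below the control and the other hexenal arrays above it, and whether the floral signal has a part in this was not tested. The difference was -0.06 ± 0.32 (SE; 95% interval -0.87 to 0.75), and it was 0.12 without hexenal replicate 1. RD29B, also lowest on array 1, was at 0.32 without it.

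KIN1, a small cold-induced gene, had log2 levels of 6.39, 6.31 and 6.18 on hexenal arrays 1, 2 and 3 and 6.36 on the acetonitrile array. It lay in the dimmest 25% of loci on all 4 arrays, the only one of the 10 genes to do so, where low intensities may hold background. Its difference was -0.07 ± 0.24 (SE), and this value says little about the transcript. Counting it, 5 of the 6 dehydration and cold markers had a 95% interval within 2-fold either way, all but RD29B. The share of all loci with such an interval was not counted. All the intervals assume that the control varies like the hexenal arrays, since a single control array shows no spread of its own.

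Over the 10 genes the median log2 difference was 0.12, against -0.03 over all loci. By group it was 1.17 for the 3 phosphatase genes and 0.01 for the 6 dehydration and cold markers. The 1.17 is the value of ABI1, with ABI2 at 1.87 and HAB1 at -0.53. For the whole clade of 9 phosphatase genes the median was -0.06. All 3 hexenal arrays lay above the control for 5 of the 10 genes (NCED3, ABI1, ABI2, RAB18 and COR47), where 26.1% of all loci did so, and below it for 2 (HAB1 and RD29A), where 32.4% did so. With the values as deposited or median centred, 8 of the 10 lay on 1 side instead of 7. The added gene was KIN1, too dim to be informative, which then lay below the control. As deposited it was at 84.5 on the control and 81.1, 78.2 and 73.4 on hexenal arrays 1, 2 and 3. The shares over all loci under those scalings were not counted. Hexenal array 2 was the highest of the hexenal arrays for 6 of the 10 genes, while 28.0% of all loci were highest there.

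Neighbouring genes with similar products were set beside the cold markers, and they may share probes. COR15B, which lies next to COR15A on chromosome 2, had log2 levels of 11.16, 11.79 and 11.29 on hexenal arrays 1, 2 and 3 and 10.38 on the acetonitrile array. Unlike COR15A, it stood above the control on every hexenal array, by 1.04 ± 0.33 (SE), with an adjusted p of 0.428 by limma, and whether the 2 genes differ was not tested. COR6.6, beside KIN1, had a difference of -0.36 ± 0.40 (SE), with hexenal array 1 lowest at 11.32 and the control at 12.21, and was at -0.095 without hexenal replicate 1. ERD10, beside COR47 on chromosome 1, had a difference of 0.31 ± 0.31 (SE), and of 0.15 without hexenal replicate 3.

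The 10 genes were then placed within 10 lists of ABA and dehydration genes, 82 loci in all with the 10 members included. Of the other 72 genes 1 was called, DREB2A as higher, and none as lower. The 72 had a median log2 difference of 0.08. All 3 hexenal arrays lay above the control for 26 of them (36.1%, against 26.1% of all loci). They lay below it for 13 (18.1%, against 32.4%). Of them 12 (16.7%) had an unadjusted p under 0.05, against 8.75% of all loci, and 10 (13.9%) a difference of at least 2-fold, against 7.22% of all loci. Without the CBF and DREB2 factors, 0 of 66 genes were called by limma, with 10 (15.2%) at an unadjusted p under 0.05, and the median was 0.07. Of these 66 genes, 6 (9.09%) differed at least 2-fold. The lists were chosen with earlier results of these data known, so these shares are description only and cannot show enrichment. For the single lists below, the shares over all loci are the same 0.899% called and 8.75% at an unadjusted p under 0.05. Counts with every hexenal array above and below the control (26.1% and 32.4% of all loci) follow for lists without them below. Synthesis had 3 and 0 of 10 genes, breakdown and release 2 and 0 of 5, and transport 2 and 0 of 3. Phosphatases had 3 and 2 of 9, SnRK2 kinases 3 and 1 of 5, and transcription factors 3 and 1 of 7. Dehydrins had 3 and 0 of 6, and CBF and DREB2 factors 4 and 0 of 6.

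**Figure D3:**
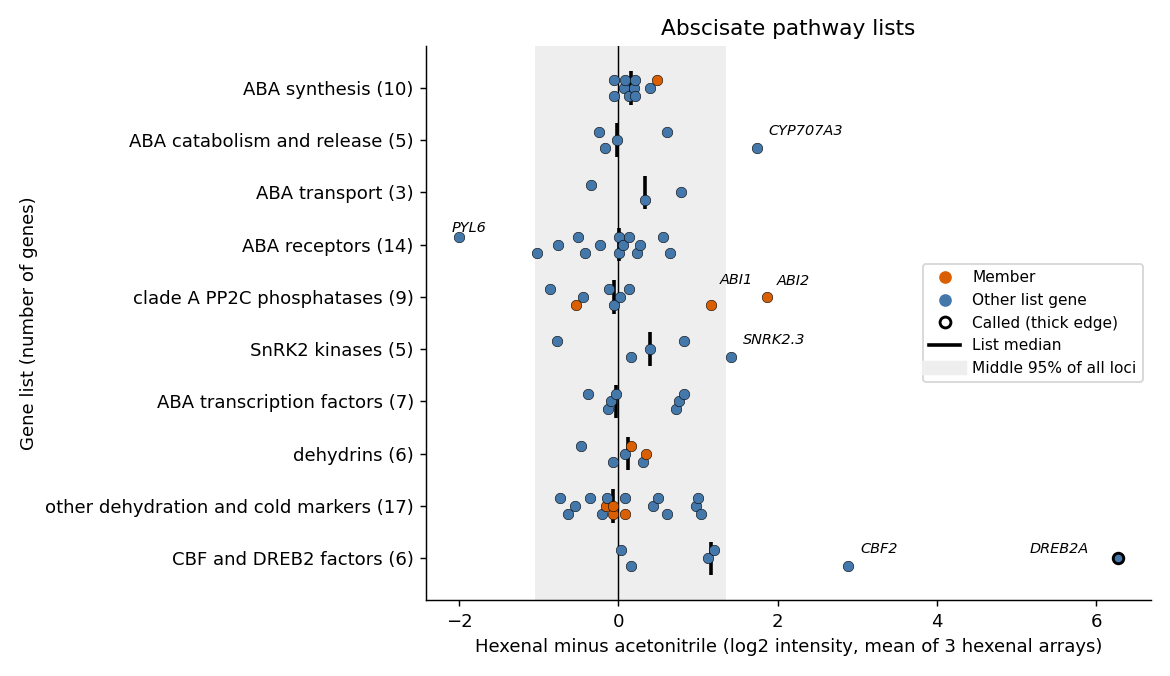
Log2 difference of hexenal (mean of 3 arrays) from acetonitrile for the 82 genes of the ABA and dehydration lists, 1 row a list with its number of genes. Orange points are the 10 members, blue points the other genes, a thick edge a called gene, black bars the list medians and the grey band the middle 95% of all loci. DREB2A is the only called gene, and ABI2 lies outside the band among the phosphatases.

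In ABA synthesis, 0 of 10 genes were called by limma, 0 had an unadjusted p under 0.05, and the list median was 0.16. NCED3 had the largest difference of the list. NCED9, a relative of NCED3, was at 0.40 ± 0.31 (SE) and the aldehyde oxidase gene AAO3, of the last synthesis step, at 0.14 ± 0.24. Of the 5 genes of ABA breakdown and release from conjugates, 0 were called by limma, 1 had an unadjusted p under 0.05, and the median was -0.02. CYP707A3, an ABA 8'-hydroxylase gene that breaks the hormone down, had log2 levels of 13.74, 13.58 and 14.03 on hexenal arrays 1, 2 and 3 and 12.05 on the acetonitrile array. Every hexenal array was at least 1.53 above the control. The difference was 1.74 ± 0.28 (SE), or 3.33-fold, with an adjusted p of 0.0880 by limma, which over the settings lay between 0.00183 (trend and robust moderation) and 0.334 (without hexenal replicate 2). Its relative CYP707A4 was at 0.60 ± 0.29.

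Of 14 receptor genes 0 were called by limma and 3 had an unadjusted p under 0.05. The receptor median was 0.01. All 3 hexenal arrays lay below the control for 6 (42.9%, against 32.4% of all loci) and above it for 3 (21.4%, against 26.1%). The 3 with an unadjusted p under 0.05 were PYL6 and PYL4, which were lower, and PYL9, which was higher at 0.65 ± 0.25 (SE) and is named after its value was seen. PYL6 had log2 levels of 8.86, 8.07 and 6.78 on hexenal arrays 1, 2 and 3 and 9.90 on the acetonitrile array, which spread widely but all lay below the control. Its difference was -1.996 ± 0.77 (SE; adjusted p = 0.555 by limma). PYL4 was at -1.02 ± 0.37. PYL5 was at -0.76 ± 0.82, with hexenal array 3 at -2.06 and the other hexenal arrays at -0.13 and -0.10 against the control, and it was -0.12 without hexenal replicate 3. Among 3 ABA transporter genes 0 were called by limma, 0 had an unadjusted p under 0.05, and the median was 0.33. The importer gene ABCG40 was at 0.78 ± 0.41 and NRT1.2, whose product carries ABA and nitrate, at 0.33 ± 0.24.

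Within the clade of 9 phosphatase genes 0 were called by limma, only ABI1 and ABI2 had an unadjusted p under 0.05, and the median was -0.06. Apart from ABI1, ABI2 and HAB1, the 6 other genes ran from -0.85 to 0.13, with HAI2 lowest at -0.85 ± 0.61 and HAI3 highest at 0.13 ± 0.24. HAI2 was at -0.42 without hexenal replicate 1. HAI3 was among the dimmest 25% of loci on all 4 arrays and at 0.0026 with median centring. Among the 5 SnRK2 kinase genes 0 were called by limma, 1 had an unadjusted p under 0.05, and the median was 0.40. SNRK2.3, 1 of the kinases that act in ABA signalling, had log2 levels of 13.41, 13.42 and 13.59 on hexenal arrays 1, 2 and 3 and 12.07 on the acetonitrile array. The hexenal arrays lay close together above the control. The difference was 1.41 ± 0.24 (SE), or 2.66-fold, with an adjusted p of 0.103 by limma, which over the settings lay between 0.00520 (trend and robust moderation) and 0.487 (without hexenal replicate 2). SNRK2.2 was at 0.40 ± 0.25 and OST1, the guard cell kinase gene, at -0.77 ± 0.36. OST1 is itself 1 of the 4 guard cell markers, and the part of guard cells in its value was not tested.

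Of 7 ABA transcription factor genes 0 were called by limma, 2 had an unadjusted p under 0.05, and the median was -0.03. The ABF factors, which bind the ABA response element, included ABF4 at 0.82 ± 0.38 (SE), ABF1 at 0.76 ± 0.26 and ABF3 at 0.72 ± 0.24. These lay above the control on all 3 hexenal arrays, as did 26.1% of all loci. Lying on 1 side of the control was a condition for naming them. The other ABF gene, ABF2, singled out after its value was seen, was at -0.39 ± 0.25 and below the control on all 3 hexenal arrays. The 6 dehydrin genes, COR47 and RAB18 among them, had 0 calls by limma, 0 had an unadjusted p under 0.05, and their differences ran from -0.47 to 0.35, with a median of 0.12. The 17 other dehydration and cold markers had 0 calls by limma, 3 had an unadjusted p under 0.05, and the median was -0.06. The largest differences there after COR15B were those of the proline synthesis gene P5CS1 (1.00 ± 0.28) and the alcohol dehydrogenase gene ADH1 (0.97 ± 0.27). All 3 genes stood above the control on every hexenal array. Of the 17 genes, 5 (29.4%) did so, against 26.1% of all loci, and 5 (29.4%) lay below it on every array, against 32.4%. Those below included RD20 (-0.73 ± 0.36), EM6 (-0.63 ± 0.41) and HB12 (-0.55 ± 0.30). Those above also included HB7 (0.61 ± 0.43) and RD26 (0.43 ± 0.25). RD20, EM6, HB12, HB7 and RD26 were named after their values were seen.

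DREB2A, which binds the dehydration responsive element of genes such as RD29A, had log2 levels of 13.46, 14.00 and 13.96 on hexenal arrays 1, 2 and 3 and 7.54 on the acetonitrile array. It rose 77.1-fold (adjusted p = 0.00723 by limma), and on the control array it was among the dimmest 25% of loci. Without hexenal replicate 2 neither DREB2A (adjusted p = 0.102 by limma) nor any other locus was called. RD29A on the same arrays was at -0.15 ± 0.23 on the log2 scale. CBF2, a cold-induced factor that binds the same element, was at 2.89 ± 0.45 (SE), with an adjusted p of 0.0783 by limma, which over the settings lay between 0.00348 (trend and robust moderation) and 0.355 (without hexenal replicate 2). It was also called without hexenal replicate 1 (adjusted p = 0.00692) and without the dimmest 25% of loci (adjusted p = 0.0346). CBF3 was at 1.202 ± 0.62, and at 0.74 without hexenal replicate 3. DREB2B was at 1.12 ± 0.45, and the median of the 6 CBF and DREB2 genes was 1.16.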

How the data were processed

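RNA of 4 samples was hybridised to one-colour Cy3 NimbleGen arrays, per the labels' protocols. The values the authors deposited are linear intensities, 1 for each locus on each array. How background, normalization and probes were handled is not given in the sources used, so no detection limit was set. The arrays' lower quartiles spanned 0.20 in log2, above a tolerance of 0.1, so log2 values were quantile normalized. Hexenal was compared with acetonitrile over all 30361 loci in R 4.3.3 with limma 3.58.1 (lmFit, eBayes without trend, two-sided, Benjamini-Hochberg). The fit has 2 residual degrees of freedom, all from the hexenal arrays. Its SEs and intervals are moderated over all loci. For a gene with a tight spread, such as RD29A (SD 0.0266, SE 0.23), they rest largely on the other loci. The script was tested on simulated data.

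Names came from a RefSeq table of TAIR10.1 (29976 loci matched, all 82 list genes among them). The members and lists were chosen with earlier results of these data known. Text names the members, called list genes, up to 3 further genes per list with the largest difference and all hexenal arrays on 1 side of the control, and COR6.6, COR15B and ERD10. The list genes PYL9, ABF2, RD20, EM6, HB12, HB7 and RD26 were added after their values were seen. A planned motif search in promoters was not run, as sequences were not used here. The number of arrays limits the precision. The 10 other settings are given in the closing section.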

Additional observations from a re-analysis of the deposited data

How the results depend on the processing

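Of 99 values of the 10 genes under 10 other settings, 94 kept their direction and side of the threshold. Part of this was fixed in advance. The settings with trend and robust moderation, without the dimmest 25% of loci and with no fold threshold reuse the reported log2 differences. Directions could not change there, and with no fold threshold the p values are also the reported ones. ABI2 passed with trend and robust moderation and without hexenal replicate 3. RD29B turned to -0.030 with median centring and to -0.24 without hexenal replicate 2 (range -0.24 to 0.32 when 1 replicate was left out), and COR15A to 0.12 without hexenal replicate 1 (range -0.18 to 0.12). KIN1 was not tested when the dimmest 25% of loci were left out. The count of members called was 0 as reported, 1 with trend and robust moderation and 0 to 1 when a hexenal replicate was left out. The count of list genes called was 1 as reported, 2 without the dimmest 25% of loci (CBF2 added), 5 with trend and robust moderation, and 0 to 2 when a replicate was left out. Over all loci the count was 273 as reported (10 of them lower), 628 with trend and robust moderation (55 lower), and 0 to 406 without 1 replicate. The 0 is without hexenal replicate 2, where DREB2A had an adjusted p of 0.102 by limma. The cause of these shifts was not tested. With no fold threshold the count stayed at 273. No paired analysis was possible because the control is a single sample with no replicate number in its labels. With 1 control array, differences rest on that array's own error, and dim loci such as KIN1 limit what can be measured.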
